A study of Mus musculus with 6 samples.

Results

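The loci examined here are those of the colony-stimulating factor (CSF) receptors and of the ligand Csf1, that is Csf1r, Csf3r, Csf2ra, Csf2rb, Csf2rb2 and Csf1. Their members are all chromatin immunoprecipitation sequencing (ChIP-seq) peaks that the deposited annotation assigned to 1 of these 6 genes, which takes the gene with the nearest transcription start site (TSS). This gave 124 of 134964 peaks over 6 peak lists. The lists come from bone marrow-derived macrophages (BMDMs) of wild-type mice aged 8-12 weeks, which the study's methods give as C57BL/6. Marrow cells were cultured for 6 days with L929 supernatant, the conditioned medium of a fibroblast line that secretes M-CSF, so the control cells also received the protein that Csf1 encodes. BMDMs were then left without IL-4 (control) or exposed to 20 ng/ml IL-4 for 1 h, fixed with DSG and formaldehyde, and precipitated for C/EBPα, IRF8 or JUNB. Each of the 6 groups is a single sample. No value below therefore has a replicate, no test was made, and an effect of IL-4 cannot be told apart from unequal depth, kit or background.

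CSFs are the cytokines that drive growth and survival of myeloid cells. CSF1R is the receptor tyrosine kinase for CSF1 (M-CSF) and IL-34 and is a defining receptor of macrophages. CSF3R is the receptor for G-CSF and is best known from neutrophils. CSF2RA is the ligand-specific chain for GM-CSF and signals through the common β chain CSF2RB, which also serves IL-3 and IL-5. The mouse carries a further copy, Csf2rb2, whose protein serves IL-3 only. C/EBPα and IRF8 are macrophage lineage-determining transcription factors (LDTFs), JUNB is a subunit of AP-1, and IL-4 activates the transcription factor STAT6.

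The number of member peaks went from 31 in control to 29 with IL-4 for C/EBPα, from 27 to 31 for IRF8 and from 4 to 2 for JUNB. The whole lists went from 24486 to 24612 peaks for C/EBPα, from 37525 to 42076 for IRF8 and from 3940 to 2325 for JUNB. Over the 6 lists Csf1r held 39 peaks, Csf2ra 24, Csf1 19, Csf2rb 18, Csf3r 13 and Csf2rb2 11. Every list was called on its own, and the score that the authors deposited with each peak has no stated unit. Median scores of whole lists were 11.2 in both C/EBPα lists, while the IRF8 lists had 10.3 (control) and 9.61 (IL-4) and the JUNB lists 7.88 and 6.21. A ratio of scores is therefore a description of 2 lists and not a ratio of binding. A control peak with no overlapping IL-4 peak of the same factor is called lost, an IL-4 peak with no overlapping control peak gained, and the others kept. Kept peaks were paired between the conditions, and the log2 ratio of a pair is that of the IL-4 score over the control score. Where a score is set against its list, the percentile gives its rank from the lowest score as a percentage of the list, with tied scores at their mean rank.

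The sequences of 5 regions and 2 promoters to which later paragraphs refer are shown first. Each line gives 200 bases around the centre of a peak on the plus strand of mm10 (GRCm38), or, for the promoters, the 250 bases before the start that the RefSeq promoter table (GRCm38.p6) gives for the gene, on the gene's strand. For Csf3r that start lies inside the full extent of the gene in RefSeq. The promoter table held entries for 4 of the 6 genes, namely Csf1, Csf2ra, Csf2rb2 and Csf3r. Promoters are printed for Csf3r and Csf2rb2, the genes of these 4 with a promoter peak in both conditions. Capitals mark matches, on either strand, to the motifs searched, which were TGACTCA (AP-1), TTGCNNAA (C/EBP, N being any base), GAAA followed after 2 bases by GAAA (IRF), GGAA followed after 1 base by TGAAA (ETS-IRF composite), GGAAGT (ETS, the family of PU.1), and TTC followed after 4 or 3 bases by GAA (STAT). ETS, composite and IRF matches can overlap each other. The Csf3r region at −5472 bp was the strongest IRF8 region of the 6 loci and lies at chr4:126019088-126019287. The Csf3r region at −20441 bp, chr4:126004119-126004318, had the widest change in C/EBPα score. The Csf2ra region at −16503 bp, chr19:61244822-61245021, held the highest score of that locus outside its telomeric repeat. The Csf1 regions, the highest of that locus and the one where C/EBPα and IRF8 went apart, lie at chr3:107771101-107771300 and chr3:107778070-107778269. The promoters lie at chr4:126024409-126024658 (plus strand) and chr15:78305722-78305971 (minus strand).
Csf3r, IRF8 peak at −5472 bp: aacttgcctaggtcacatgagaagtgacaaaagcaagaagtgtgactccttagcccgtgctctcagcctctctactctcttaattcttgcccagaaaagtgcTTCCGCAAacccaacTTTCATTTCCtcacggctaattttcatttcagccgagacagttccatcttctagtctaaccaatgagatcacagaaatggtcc
Csf3r, C/EBPα peak at −20441 bp: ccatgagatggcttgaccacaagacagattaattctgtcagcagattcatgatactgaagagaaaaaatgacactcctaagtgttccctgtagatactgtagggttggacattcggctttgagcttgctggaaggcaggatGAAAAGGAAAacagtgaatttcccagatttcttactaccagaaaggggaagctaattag
Csf2ra, IRF8 peak at −16503 bp: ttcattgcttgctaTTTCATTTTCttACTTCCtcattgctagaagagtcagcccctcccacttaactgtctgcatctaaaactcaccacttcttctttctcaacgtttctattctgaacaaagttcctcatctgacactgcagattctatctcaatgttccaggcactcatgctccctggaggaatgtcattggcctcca
Csf1, IRF8 peak at −10731 bp: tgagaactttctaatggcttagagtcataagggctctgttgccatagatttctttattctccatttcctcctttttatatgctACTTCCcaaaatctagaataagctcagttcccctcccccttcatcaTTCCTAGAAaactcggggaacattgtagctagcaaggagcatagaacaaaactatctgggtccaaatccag
Csf1, IRF8 peak at −17700 bp: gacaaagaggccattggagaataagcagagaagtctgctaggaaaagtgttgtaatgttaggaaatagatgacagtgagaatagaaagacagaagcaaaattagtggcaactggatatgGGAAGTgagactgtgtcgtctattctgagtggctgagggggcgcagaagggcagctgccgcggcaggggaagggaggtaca
Csf3r promoter: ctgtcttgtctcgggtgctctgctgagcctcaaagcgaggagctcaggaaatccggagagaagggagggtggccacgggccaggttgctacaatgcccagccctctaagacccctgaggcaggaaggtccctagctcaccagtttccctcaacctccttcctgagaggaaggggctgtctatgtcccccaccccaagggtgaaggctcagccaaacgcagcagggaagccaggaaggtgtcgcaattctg
Csf2rb2 promoter: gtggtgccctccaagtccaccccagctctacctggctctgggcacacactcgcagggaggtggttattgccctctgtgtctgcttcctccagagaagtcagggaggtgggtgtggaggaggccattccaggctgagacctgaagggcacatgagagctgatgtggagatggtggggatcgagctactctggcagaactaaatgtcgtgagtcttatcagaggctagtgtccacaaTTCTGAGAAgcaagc

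The Csf3r region at −5472 bp held a C/EBP match at base 103 of the printed stretch and an ETS-IRF composite match at base 118, the only composite match among the 50 regions of the 6 loci. The Csf3r region at −20441 bp held an IRF match at base 142 and no C/EBP match. The Csf2ra region paired an IRF match with an ETS match. At Csf1, the region at −10731 bp held an ETS and a STAT match and the region at −17700 bp an ETS match alone. No motif of the list was found in the printed Csf3r promoter. The Csf2rb2 promoter held a STAT match with a spacer of 3, which 8.3% of 32851 promoters of the table also hold, and an ETS match in the 50 bases after the start, a motif found in 23.8% of them. A match is a run of letters and not evidence of binding.

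**Figure D1:**
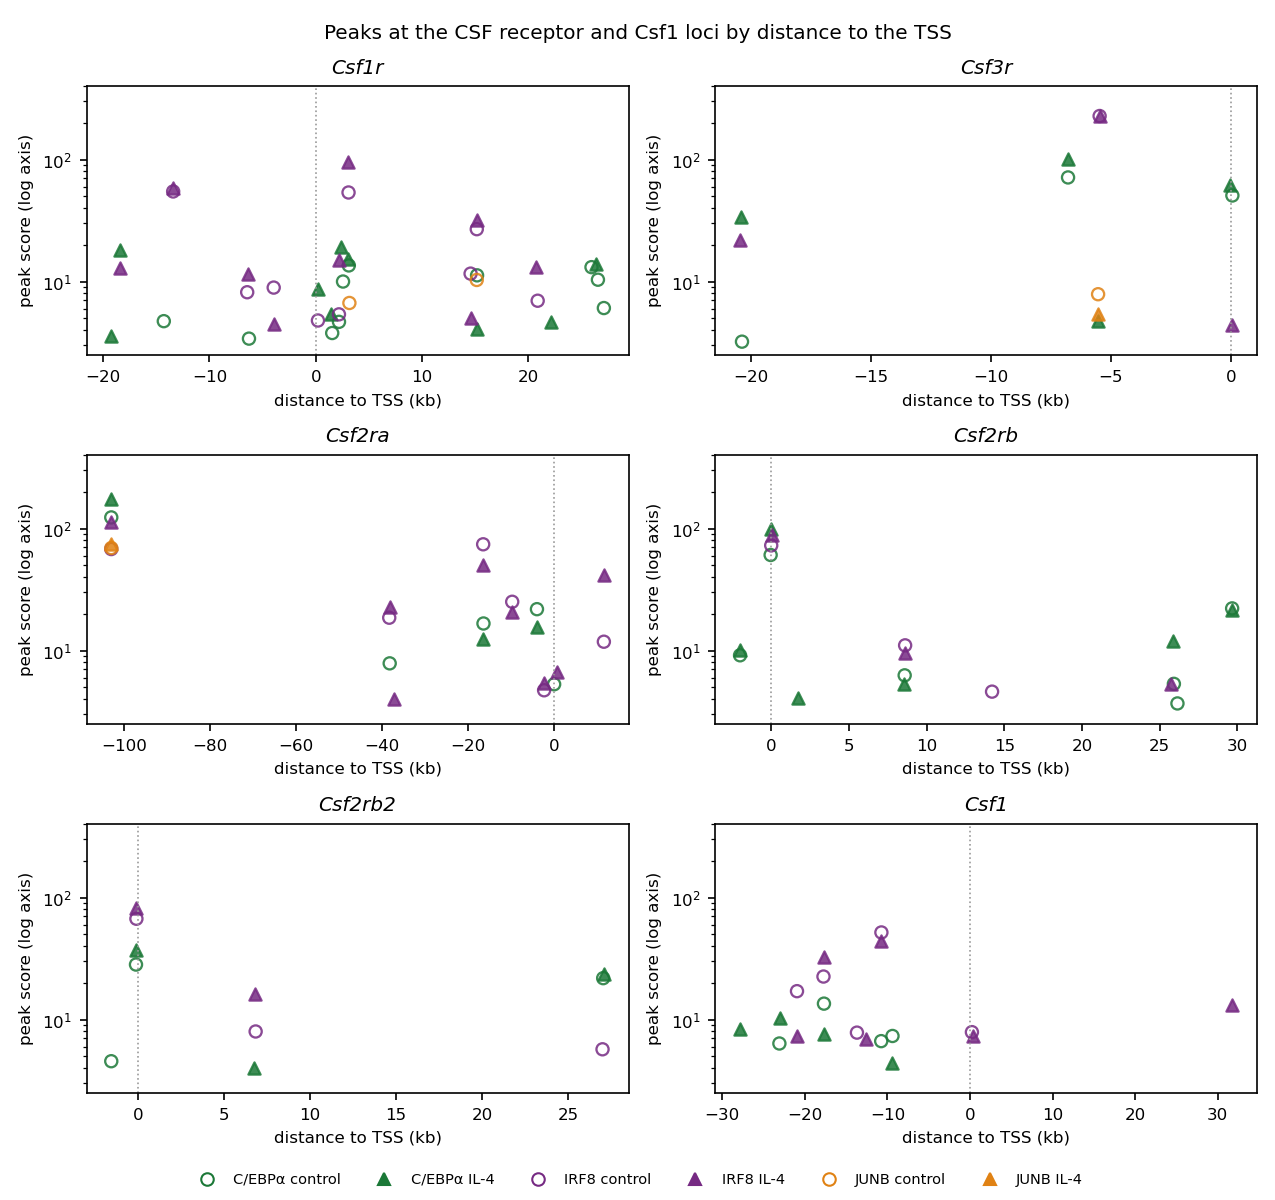
Each panel plots the peaks of 1 gene, with the distance of the peak centre to the TSS in kb on the horizontal axis and the deposited peak score on a log axis. Open circles are control peaks and filled triangles are IL-4 peaks, coloured by factor. Csf3r carries 1 IRF8 region far above the others (227.1 in control and 227.9 after IL-4), and the Csf2ra panel has a cluster at −103002 bp with all 3 factors.

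Csf3r, on chromosome 4 at 126023441-126044975, had the fewest regions beside Csf2rb2, 4 in all, yet held the highest IRF8 score of the 6 genes. At −5472 bp the IRF8 score was 227.1 in control and 227.9 after IL-4, at the 99.8 and 99.7 percentiles of their lists. JUNB scored 7.88 in control and 5.46 after IL-4 at this region, and C/EBPα had a peak after IL-4 only, with a score of 4.77. So this intergenic region, whose composite and C/EBP matches are printed above, was called for JUNB and IRF8 in both conditions.

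At −6778 bp of Csf3r, C/EBPα scored 71.3 in control and 101.82 after IL-4, with no IRF8 or JUNB peak. The strongest C/EBPα and the strongest IRF8 region of Csf3r were thus separate. Over the promoter, annotated to transcript NM_001252651, C/EBPα scored 50.73 in control and 62.07 after IL-4. An IRF8 promoter peak, with a score of 4.42, was called after IL-4 only.

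The region at −20441 bp showed the widest difference of the C/EBPα pairs at the 6 loci. Its C/EBPα score was 3.22 in control and 34.05 after IL-4, a ratio of 10.6 (log2 ratio 3.40), and the peak moved from the 2.45 to the 82.7 percentile of its list. Of all 19111 C/EBPα peaks present in both conditions, 0.0262% had a ratio at least as high. An IRF8 peak with a score of 22.1 was called at the same place after IL-4 and none in control. All 3 C/EBPα pairs of Csf3r scored higher after IL-4, and no Csf3r peak was lost.

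Csf2rb and Csf2rb2 lie next to each other on chromosome 15, at 78325800-78351001 and 78282507-78305721, on opposite strands and with starts 20079 bp apart. Both genes had their highest score over the promoter, where C/EBPα and IRF8 were called together in both conditions. At the Csf2rb promoter C/EBPα scored 60.69 in control and 98.88 after IL-4, and IRF8 scored 72.72 and 88.67. At the Csf2rb2 promoter C/EBPα scored 28.23 and 37.07, and IRF8 scored 66.98 and 81.89. All 4 promoter pairs were higher after IL-4, by log2 ratios of 0.70 and 0.29 at Csf2rb and 0.39 and 0.29 at Csf2rb2. Over the whole lists, 49.7% of C/EBPα pairs and 55.4% of IRF8 pairs were higher. Ratios at least as high as at Csf2rb were found in 14.2% of all C/EBPα pairs and 37.6% of all IRF8 pairs. For Csf2rb2 these shares were 25.8% and 37.4%. No JUNB peak was assigned to either gene.

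The resemblance of the copies reached into the bound regions. The promoter regions aligned over 365 columns with 343 identical bases (94%), the intron 1 regions over 276 columns with 255 identical bases (92.4%), and the upstream regions over 131 columns with 127 identical bases (96.9%), each pair in reverse orientation. No other pairing of a Csf2rb with a Csf2rb2 region aligned with more than 35 identical bases. The longest stretch without a difference was 96 bases, in intron 1. Reads that fall within such stretches cannot be placed on 1 copy, and the read length and the handling of such reads are not given in the sources used here, so the values of these paralogous regions are uncertain.

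Within that limit, the copies are set side by side here. In intron 1, Csf2rb (8612 bp from the TSS) had IRF8 scores of 11.04 in control and 9.64 after IL-4, and Csf2rb2 (6806 bp) had 7.99 and 16.1, so the scores ordered the copies one way in control and the other way after IL-4. C/EBPα scored 6.27 and 5.33 in intron 1 of Csf2rb and was called in intron 1 of Csf2rb2 after IL-4 only, at 4.04. Upstream, C/EBPα scored 9.15 and 10.15 at −2031 bp of Csf2rb and was called at −1536 bp of Csf2rb2 in control only, at 4.56. Both promoter regions and both intron 1 regions held an ETS and a STAT match with a spacer of 3, and both upstream regions held a C/EBP match. The Csf2rb promoter region also held a C/EBP match, which the Csf2rb2 promoter region did not.

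**Figure D2:**
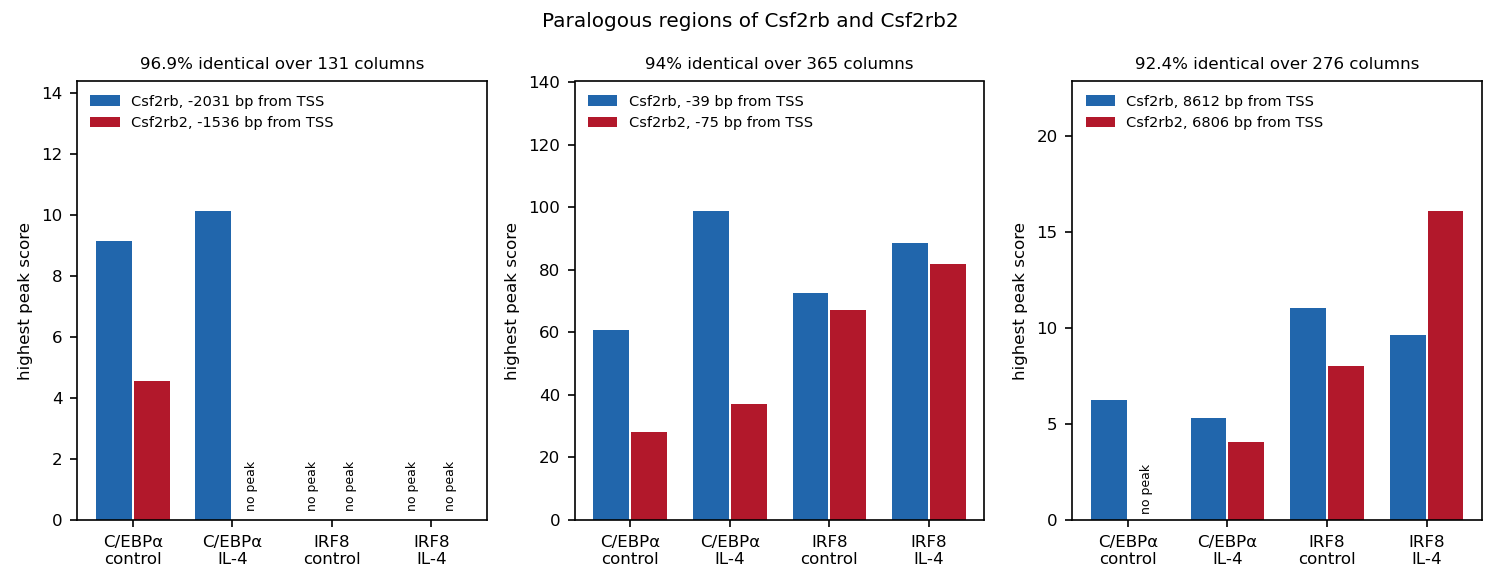
Bars give the highest peak score of C/EBPα and IRF8 in control and after IL-4 in the 3 pairs of aligned regions of Csf2rb (blue) and Csf2rb2 (red), on linear axes that start at 0 and differ between panels. The Csf2rb promoter scored above that of Csf2rb2 in all 4 lists, and in intron 1 the IRF8 order changed between control (11.04 and 7.99) and IL-4 (9.64 and 16.1).

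The other regions of this pair had no counterpart among the called regions of the neighbour. Sequence of the neighbour without a peak was not searched. At the end of Csf2rb, 25879 bp from its TSS, C/EBPα scored 5.34 in control and 12.07 after IL-4 (log2 ratio 1.18), with an IRF8 peak of 5.37 after IL-4 only. At 29660 bp C/EBPα scored 22.16 and 21.45. In Csf2rb, C/EBPα gained a peak of 4.08 in intron 1 and IRF8 lost a peak of 4.61 in intron 4. Past the end of Csf2rb2, 27068 bp from its TSS, C/EBPα scored 21.84 and 23.72 while an IRF8 peak of 5.71 was called in control only.

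Csf2ra, the chain that binds GM-CSF, lies close to the end of chromosome 19, at 61217191-61228461 on the minus strand. Its 10 regions included the only one of the 50 that was called in all 6 lists. That region sits far upstream of the start, at −102998 bp, where C/EBPα scored 123.29 in control and 174.86 after IL-4, IRF8 67.87 and 112.07, and JUNB 69.16 and 74.06. The JUNB peaks ranked 15 and 13 in their lists. The IL-4 IRF8 peak, at chr19:61331180-61331658, held 47 copies of the telomeric hexamer and 92 unknown bases, and the last known base of the assembly on this chromosome is 61331566. Between 35 and 48 peaks per list lay on this repeat over the genome. Whether the repeat sets these scores was not tested.

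Without the repeat, Csf2ra had no JUNB peak. Its highest score was then that of IRF8 at −16503 bp, with 74.24 in control and 50.16 after IL-4, a region where C/EBPα scored 16.67 and 12.54. The sequence printed above shows an IRF and an ETS match there. The widest IRF8 difference of the 6 loci was at 11572 bp, just past the end of the gene, where IRF8 scored 11.82 in control and 41.89 after IL-4 (log2 ratio 1.83). Of all 29110 IRF8 pairs, 2.02% had a ratio at least as high. Further IRF8 regions changed less, with 25.11 and 20.55 at −9748 bp and 18.59 and 22.6 at −38279 bp.

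C/EBPα and IRF8 peaks of Csf2ra went opposite ways in number, from 5 to 3 for C/EBPα and from 6 to 8 for IRF8. The whole lists went from 24486 to 24612 peaks for C/EBPα and from 37525 to 42076 for IRF8. C/EBPα peaks of 5.3 over the promoter (5 bp from the TSS, transcript NM_009970) and of 7.86 at −38242 bp were called in control only. IRF8 peaks of 6.68 in intron 1 (708 bp) and of 4.02 at −37345 bp were called after IL-4 only. At −3990 bp, C/EBPα scored 21.84 and 15.55. No Csf2ra promoter peak was therefore called for any of the 3 factors after IL-4.

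Csf1r lies on chromosome 18 at 61105572-61131139 and had the most peaks and the most regions, 15, of the 6 genes. The C/EBPα lists held 10 (control) and 9 (IL-4) of them, the IRF8 lists 9 each, and the JUNB lists 2 and 0. Of genes with any C/EBPα peak in control, 2.94% had at least as many. None of the 39 peaks was annotated as promoter. The nearest, in the 5′ UTR (exon 2 of 22 of NM_001037859), was an IRF8 peak of 4.8 at 212 bp in control only and a C/EBPα peak of 8.69 at 229 bp after IL-4 only.

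Intron 2 of Csf1r, which is known to hold the Fms intronic regulatory element (FIRE), carried the largest region of the 6 loci, 1267 bp wide at 61107640-61108906. The IRF8 score at 3003 bp from the TSS was 53.68 in control and 95.08 after IL-4 (log2 ratio 0.82), at the 90.1 and 95.7 percentiles. A second IRF8 peak, at 2206 bp, scored 5.39 and 14.98 (log2 ratio 1.47). C/EBPα scored 10.01 in control and 19.32 after IL-4 at 2421 bp and 13.56 and 15.29 at 3055 bp. All 4 pairs of this region thus scored higher after IL-4, and a further C/EBPα control peak of 4.68 lay under the wide IL-4 peak. Over the whole lists, 49.7% of C/EBPα pairs and 55.4% of IRF8 pairs scored higher. JUNB scored 6.68 here in control and was not called after IL-4. The region held an IRF match and no other motif of the list in its central 200 bases. Those bases lay before the control IRF8 peak (61108453-61108874) and the JUNB peak (61108637-61108851). They also lay before the C/EBPα peaks near 3055 bp. The match and the absence of others therefore do not describe the sequence under those peaks.

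Intron 11 of Csf1r was the other place where all 3 factors were called in control. There, 15166 bp from the TSS, IRF8 scored 26.87 in control and 31.97 after IL-4, while C/EBPα scored 11.25 and 4.08 (log2 ratio −1.46), a ratio at or below which 1.71% of all C/EBPα pairs lay. JUNB scored 10.31 in control and was not called after IL-4. This region held an AP-1 match. A nearby IRF8 peak at 14577 bp scored 11.62 and 5.06.

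Upstream of Csf1r, the strongest region was an IRF8 region at −13401 bp, with 54.72 in control and 58.68 after IL-4. At −18461 bp no factor had a peak in control, and after IL-4 C/EBPα was called with 18.1 and IRF8 with 12.91. This was the only region of the 50 that gained peaks of more than 1 factor. The IRF8 score was 8.18 and 11.62 at −6405 bp and 8.93 and 4.47 at −3952 bp, and in intron 15 it was 6.97 and 13.07. Around the end of the gene, C/EBPα had peaks of 13.13 and 10.36 in control and a single wide peak of 13.89 after IL-4.

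The summed score of Csf1r, in control and then with IL-4, was 81 and 93.1 in the C/EBPα lists, 181 and 248 in the IRF8 lists, and 17 and 0 in the JUNB lists. Among 14930 genes with a peak in any list, the genes with the nearest profile of summed scores over the 6 lists, by Euclidean distance of log2(1 + summed score), were 9430018G01Rik (0.318), Mir221 (0.407) and Htra4 (0.651). All 3 also had a JUNB sum above 15 in control and 0 after IL-4. Both JUNB lists enter the distance, so this likeness follows from how the genes were picked.

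Csf1, the ligand gene, lies on chromosome 3 at 107741048-107760469 on the minus strand and had no JUNB peak. C/EBPα had 4 peaks in each condition, and IRF8 had 5 in control and 6 after IL-4. Most lay in a stretch upstream of the start, from −9388 to −27882 bp, and none was annotated as promoter. The highest was IRF8 at −10731 bp, with 51.73 in control and 43.76 after IL-4, where a C/EBPα peak of 6.66 was called in control only. Nearest to the start, IRF8 scored 7.89 and 7.34 in the 5′ UTR (exon 1 of 9 of NM_001113529).

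At −17700 bp of Csf1 the factors went apart. C/EBPα scored 13.51 in control and 7.65 after IL-4, and IRF8 scored 22.52 and 32.38. IRF8 scored 17.09 and 7.29 at −20951 bp (log2 ratio −1.23), and C/EBPα scored 7.34 and 4.44 at −9388 bp and 6.37 and 10.36 at −23039 bp. Of the 7 Csf1 pairs, 5 were lower after IL-4. Over the whole lists, 49.7% of C/EBPα pairs and 55.4% of IRF8 pairs were higher. IRF8 peaks of 13.13 at 31769 bp and 6.96 at −12541 bp and a C/EBPα peak of 8.42 at −27882 bp were called after IL-4 only, and an IRF8 peak of 7.82 at −13692 bp in control only.

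Over the 6 loci, C/EBPα lost 7 of 31 control peaks (22.6%), against 21.4% of all C/EBPα peaks, and gained 8 of 29 IL-4 peaks (27.6%), against 22% of all. IRF8 lost 4 of 27 peaks (14.8%), against 21.4%, and gained 8 of 31 (25.8%), against 30.4%. JUNB lost 2 of 4 peaks, against 64.2% of all JUNB peaks, and gained 0 of 2, against 39.2%. Without the telomeric peaks, the C/EBPα shares were 7 of 30 lost and 8 of 28 gained, those of IRF8 4 of 26 and 8 of 30, and those of JUNB 2 of 3 and 0 of 1. These shares were near those of their lists or rested on a few peaks. Lost C/EBPα member peaks had a median score of 5.3, against 12.2 for the kept ones, and gained ones 4.72, against 15.3. Over all C/EBPα peaks these medians were 5.62 against 14.8 for lost and 5.88 against 14.8 for gained peaks. Lost IRF8 peaks had a median of 5.25, against 18.6, and gained ones 6.82, against 22.6. Over all IRF8 peaks the medians were 5.33 against 13.7 and 4.99 against 14.9. The lost JUNB peaks had a median of 8.5, against 38.5 for the kept ones, which include the telomeric peak. Over all JUNB peaks these were 6.79 and 10.8. Lower scores of changed peaks were thus a property of the whole lists. Some changed peaks scored above their list median, among them the gained IRF8 peak of Csf3r (22.1) and the gained C/EBPα peak of Csf1r (18.1).

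**Figure D3:**
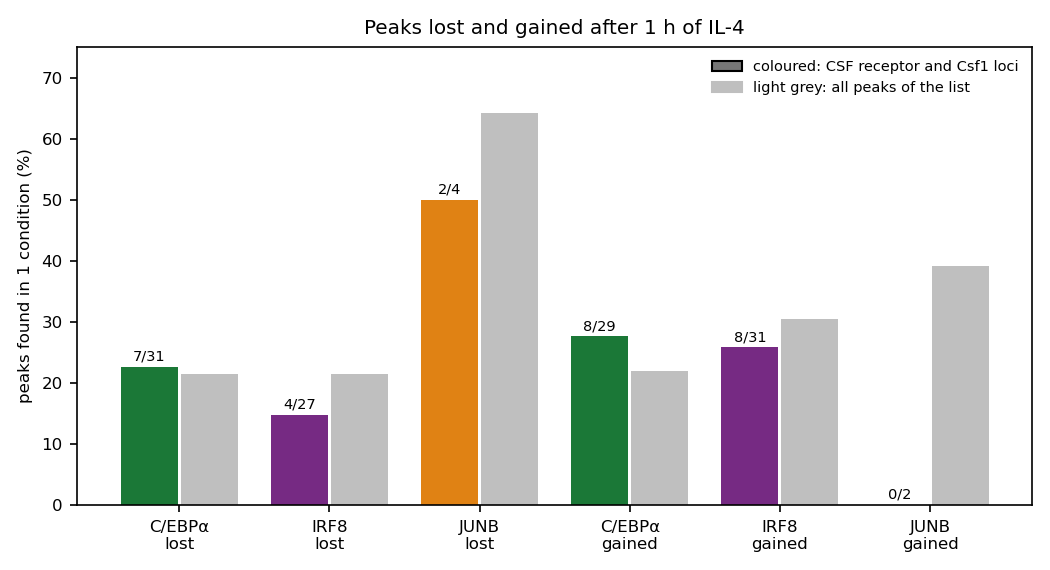
Bars give the percentage of peaks found in 1 condition only, for the 6 loci (coloured, with the counts above) and for all peaks of the list (grey). The C/EBPα bars of the loci sit at 22.6% and 27.6%, beside 21.4% and 22% for all peaks, and no JUNB peak was gained.

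Of 21 C/EBPα member pairs, 14 scored higher and 7 lower after IL-4, with a median log2 ratio of 0.29, where all 19111 pairs had a median of −0.00 and an SD of 0.71. Among all C/EBPα pairs, 49.7% were higher. Past 2-fold, 2 of the 21 were higher (Csf3r at −20441 bp and the end of Csf2rb), against 7.72% of all, and 1 was lower (intron 11 of Csf1r), against 6.56%. Of 23 IRF8 member pairs, 15 were higher and 8 lower, with a median of 0.25 against 0.08 (SD 0.79) for all 29110 pairs. Among all IRF8 pairs, 55.4% were higher. Past 2-fold, 3 were higher, against 11.3%, and 2 lower, against 7.96%. Neither JUNB pair was past 2-fold in either direction, against 2.99% of all JUNB pairs higher and 29.9% lower. Counting any rise, 26.4% of all JUNB pairs were higher. Without the telomeric peak, 13 of 20 C/EBPα pairs and 14 of 22 IRF8 pairs were higher, with medians of 0.23 and 0.22, and the 1 JUNB pair left was lower.

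**Figure D4:**
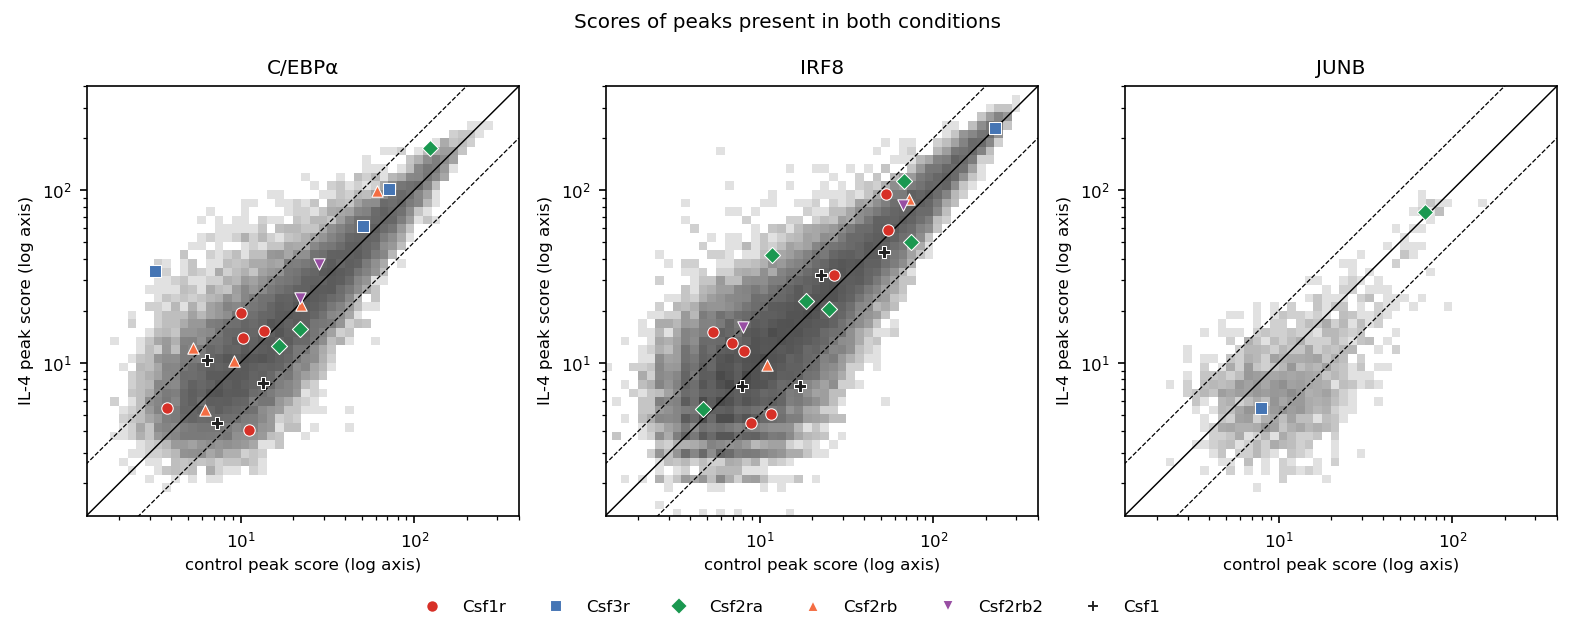
Each panel plots the IL-4 score against the control score of peaks called in both conditions, on log axes. Grey cells count all pairs of the factor (darker for more), symbols are pairs at the 6 loci, the solid line marks equal scores and the dashed lines a 2-fold difference. Csf3r at 3.22 and 34.05 stands far above the line for C/EBPα, and the Csf2ra JUNB pair is the telomeric peak.

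Merged over all lists, the peaks formed 50 regions. C/EBPα was called in 35, IRF8 in 34 and JUNB in 4. Of all 60856 regions, C/EBPα was called in 29432, IRF8 in 49648 and JUNB in 4807. A single factor was called in 31 regions (62%), a pair in 15 (30%) and all 3 in 4 (8%), against 67.7%, 26.7% and 5.56% of all 60856 regions. Every pair of factors was C/EBPα with IRF8, as were 15292 of the 16259 regions with 2 factors over the genome. The 4 regions with all 3 factors were Csf3r at −5472 bp, introns 2 and 11 of Csf1r and the telomeric repeat near Csf2ra, without which 3 of 49 regions had all 3.

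By annotation, 69 of the 124 peaks were intergenic (55.6%, against 43% of all peaks), 33 intronic (26.6%, against 45.3%), 12 at a promoter (9.68%, against 7.59%), 6 at a transcript end (4.84%, against 1.28%) and 4 in a 5′ UTR (3.23%, against 0.359%). The promoter peaks belonged to Csf2rb and Csf2rb2 (4 each), Csf3r (3) and Csf2ra (1). The median distance to the TSS, without sign, was 10743 bp at the loci and 20490 bp over all peaks, and it ranged from 5538 bp at Csf3r to 17687 bp at Csf1. Without the telomeric peaks, 63 of 118 peaks (53.4%) were intergenic and the median distance was 9773 bp. Peaks of a gene at the same place in several lists are not independent, so these shares are descriptions.

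In the central 200 bases of the 50 regions, ETS matches were the most frequent, in 18 regions (36%, against 39.4% of 60845 regions). C/EBP matches were in 8 (16%, against 18.4%), AP-1 matches in 5 (10%, against 10.9%), IRF matches in 4 (8%, against 7.6%) and the composite in 1 (2%, against 6.23%). STAT matches were in 6 regions with a spacer of 4 (12%, against 7.63%) and in 7 with a spacer of 3 (14%, against 7.39%). The latter include the promoter and intron 1 regions of both Csf2rb and Csf2rb2, which are 94% and 92.4% identical between the copies. The count with a spacer of 3 therefore holds paralogous sequence more than once, as does the ETS count. So does the C/EBP count, through the upstream regions of both genes, which are 96.9% identical. At Csf1r, 4 regions held a STAT match with a spacer of 4, among them the regions at −18461, −13401 and −3952 bp.

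The wider CSF pathway was described by 38 other genes, taken as ligands, receptor chains, signalling proteins, brakes on signalling and regulators of these loci. At these genes C/EBPα had 131 peaks in control, of which 14 were lost (10.7%, against 21.4% of all C/EBPα peaks), and 159 after IL-4, of which 43 were gained (27%, against 22%). IRF8 lost 38 of 212 (17.9%, against 21.4%) and gained 74 of 246 (30.1%, against 30.4%), and JUNB lost 16 of 21 (76.2%, against 64.2%) and gained 6 of 11 (54.5%, against 39.2%). Pooled over the 3 factors, 24% of all control peaks were lost and 27.7% of all IL-4 peaks gained. The brakes went from 50 to 68 peaks, with 6 lost (12%) and 25 gained (36.8%), of which 13 were at Socs1 alone. The signalling proteins went from 182 to 216, with 33 lost (18.1%) and 69 gained (31.9%), and the regulators from 102 to 101, with 22 lost (21.6%) and 22 gained (21.8%). Other ligands had 7 peaks in each condition and other receptor chains 23 and 24.

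By number of peaks lost or gained, which grows with the number of peaks of a gene, the first genes of this list were Pik3r1, Runx1 and Fyn. Pik3r1, a regulatory subunit of PI3 kinase, lost 9 of 38 peaks and gained 21 of 50. Runx1, a myeloid transcription factor, lost 12 of 61 and gained 13 of 61, and Fyn, a Src family kinase, lost 5 of 19 and gained 11 of 25. Socs1, an inhibitor of JAK signalling, was singled out after its values were seen, because it lost none of 10 peaks and gained 13 of 23, of which 9 were IRF8 peaks. Other genes of the list also lost no peak, among them Cish, which gained 5 of 7, and Ets2, Socs3 and Stat3. Il34, the other ligand of CSF1R, and Il5 and Sos1 had no peak in any list.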

How the data were processed

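ChIP-seq for C/EBPα, IRF8 and JUNB had been made in BMDMs without and with IL-4, with 1 sample for each factor and condition. The submitters' processing notes name BWA 0.7.10, SAMtools 0.1.19, HOMER 4.2 and MACS2 2.0.10, and the mm10 assembly. Alignment was with BWA and peaks were called per sample with MACS2, after which the authors removed blacklisted regions and annotated the peaks. No unit is stated for the score that the authors deposited, and the control library for the caller is not given in the sources used here. Read numbers are not given either, so the depth is unknown and no counting error can be attached to a peak. The labels name a pair of library kits without saying which sample was made with which. The distance to the TSS (bp), gene name and annotation were used as deposited.

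Here, a peak was kept when it overlapped a peak of the other condition by at least 1 bp, and otherwise called lost (control only) or gained (IL-4 only). Pairs of kept peaks were one-to-one, taken by decreasing overlap, and scores were compared as log2 ratios. A pair was called past 2-fold. Overlapping peaks of the 6 lists were merged into regions. Motifs were read in 200 bp around region centres of GRCm38. No peak ended past its chromosome, and at least 98.5% of promoter peaks had a GENCODE TSS within 1000 bp. Coordinates carry an uncertainty of 1 bp in the start. All 6 genes are named. Their highest region, nearest peak, promoter peaks and regions changed in several factors are given in full, the others by value or count. Of the pathway list, the 3 genes with most changed peaks and those without peaks are named. Socs1 and some others that lost no peak were added after the values were seen. Spi1 was matched as Sfpi1. The members and lists were chosen with earlier results of these data known. Alternatives changed the overlap, score threshold, list length, peak width, distance, gene assignment, score scaling, promoter definition and motif window. Scripts ran in Python 3.11.15 with numpy 2.4.6, pandas 2.3.3, scipy 1.17.1, Biopython 1.88 and matplotlib 3.10.9, overlaps were compared with bedtools 2.31.1, and 5 of 5 checks on simulated data passed.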

Additional observations from a re-analysis of the deposited data

Results flagged for a closer look

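The number of Csf2ra peaks moved in opposite directions for different factors. C/EBPα had 2 peaks fewer after IL-4 (a difference of −2) and IRF8 had 2 more (a difference of 2). Each factor had a single pair of samples, so this difference was not tested. The 4 peaks concerned scored between 4.02 and 7.86. The whole IRF8 list also grew, from 37525 to 42076 peaks, and 30.4% of its IL-4 peaks were gained. The whole C/EBPα list went from 24486 to 24612.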

How the results depend on the processing

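Of 108 alternative values for 33 results, 88 stayed within their limits and 20 moved. The limits for counts were a fold difference and were wide. Control C/EBPα peaks falling from 31 to 23 under the gene body assignment stayed within them. For median log2 ratios the limits were an interval of the ordered member ratios, which for JUNB were its 2 ratios. The counts of lost and gained peaks depended on weak peaks. When only peaks scoring at least 10 counted as changed, C/EBPα lost 0 and gained 1, IRF8 lost 0 and gained 3, and JUNB lost 1. With peaks scoring at least 5 in both lists, C/EBPα gained 5. With peaks set to 200 bp, C/EBPα lost 11. With lists of a factor cut to equal length by score, JUNB lost 1 at the 6 loci and 9 at the pathway genes. Dividing scores by the list median turned the JUNB median log2 ratio from −0.22 to 0.13, over 2 pairs. With percentiles in place of scores, the median log2 ratio was 0.04 for C/EBPα and 0.03 for IRF8, against 0.29 and 0.25. Those values were counted as within limits although percentiles are another scale. Assigning peaks by gene body plus 10000 bp gave 20 IRF8 peaks in control and 20 after IL-4, so the difference in number was gone, and 1 JUNB peak after IL-4, and within 100000 bp of the TSS JUNB also had 1. Taking promoters as within 2000 bp gave 21 promoter peaks. In a 100 bp window, matches fell to 3 regions for AP-1, 0 for IRF, 9 for ETS, 2 for STAT with a spacer of 4 and 4 with a spacer of 3, and over whole regions AP-1 matched 8. No paired analysis was possible because each factor and condition had 1 sample and the labels carry no replicate numbers.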
